A study of Homo sapiens with 12 samples.

Results

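H3K27me3 marks were followed at 3 genes of the GABA system in SH-SY5Y neuroblastoma cells, GAD1 and GAD2, which encode the enzymes that make GABA, and SLC32A1, which encodes the transporter that loads it into synaptic vesicles. They are 3 of the 19962 protein-coding genes examined. GAD1 was chosen by the presence of its peaks, because a mark next to its main start site had been seen in both WT peak lists and in no Tau-KO list, and because the study lists it among the transcripts that are higher in Tau-KO cells. GAD2 and SLC32A1 were taken with it for their function. The difference between WT and Tau-KO at GAD1 is therefore given as a description, with no test.

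SH-SY5Y is a human neuroblastoma line that expresses Tau. The groups were these cells without a knock-out (WT) and 2 Tau-KO lines made from them, 231K and 232P, all grown in the same medium and with no further treatment, and each was assayed in 2 replicates by ChIP with the same H3K27me3 antibody. The labels give no clonal origin or passage for the lines, so a difference between a line and the WT cells cannot be told apart from a difference between clones. Each of the 6 ChIP samples had 1 list of peaks, and the 6 input samples had no list and were not analysed here. The lists held no read totals. The relative depth recovered from them, in percent of the deepest, was 100 for WT replicate 1 and 66.6 for replicate 2. In the same order it was 94.8 and 68.7 for 231K, with 68.1 and 56.9 for 232P. WT peaks covered 7.05% and 9.32% of the autosomes and the X chromosome, those of 231K 6.49% and 9.57%, and those of 232P 2.32% and 6.99%, so that replicate 1 of 232P was the sparsest list. Peaks in both lists labelled 232P carry names that start with 231P, and here the label was kept.

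GABA is the main inhibitory transmitter of the brain. GAD1 and GAD2 are the glutamate decarboxylases GAD67 and GAD65, which remove a carboxyl group from glutamate, and SLC32A1 (VGAT) exchanges protons for GABA or glycine at the vesicle membrane. H3K27me3 is the trimethylation of histone 3 at lysine 27 by the Polycomb repressive complex PRC2, which in many cell types covers developmental and lineage genes that are not in use. SH-SY5Y cells stem from the sympathetic lineage, and noradrenergic rather than GABAergic genes are typical of them.

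The sequences that follow locate the results. They are written 5′ to 3′ on the plus strand, which is the strand of all 3 genes, and every CG, the dinucleotide that is dense in CpG islands, is in capitals. The first is the 106 bp common to both WT peaks of the mark by which GAD1 was chosen (hg38 chr2:170816347-170816452, 540 to 435 bp before the main start site). The second is the longest stretch of the upstream GAD1 mark that lay in peaks of all 6 lists (hg38 chr2:170814544-170814822). The third is the part of the GAD2 mark behind the start site that 5 lists share and that lies before an annotated UTR (hg38 chr10:26216980-26217144). The fourth is the RefSeq promoter of SLC32A1 up to its start site (GRCh38.p14 chr20:38724236-38724485), where no list had a peak, and the last is the stretch past the end of SLC32A1 that lay in peaks of all 6 lists (hg38 chr20:38729828-38730019).
GAD1, mark of the WT lists only: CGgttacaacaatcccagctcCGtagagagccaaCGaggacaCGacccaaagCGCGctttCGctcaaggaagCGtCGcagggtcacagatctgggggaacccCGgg
GAD1, upstream mark of all 6 lists: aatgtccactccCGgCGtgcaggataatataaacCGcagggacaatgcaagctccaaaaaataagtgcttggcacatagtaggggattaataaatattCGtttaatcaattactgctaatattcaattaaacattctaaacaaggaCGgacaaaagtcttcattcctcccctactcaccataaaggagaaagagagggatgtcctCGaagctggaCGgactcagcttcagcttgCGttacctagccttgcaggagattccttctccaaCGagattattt
GAD2, mark behind the main start site: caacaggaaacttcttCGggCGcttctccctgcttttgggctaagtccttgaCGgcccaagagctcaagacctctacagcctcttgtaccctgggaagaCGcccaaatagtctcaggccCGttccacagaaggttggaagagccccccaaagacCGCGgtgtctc
SLC32A1, promoter without a mark: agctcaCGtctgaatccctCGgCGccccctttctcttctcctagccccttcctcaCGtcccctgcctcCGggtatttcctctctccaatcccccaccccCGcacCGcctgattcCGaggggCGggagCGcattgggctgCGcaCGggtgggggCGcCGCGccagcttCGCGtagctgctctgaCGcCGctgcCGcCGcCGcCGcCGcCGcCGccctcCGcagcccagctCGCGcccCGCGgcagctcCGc
SLC32A1, mark past the gene end, all 6 lists: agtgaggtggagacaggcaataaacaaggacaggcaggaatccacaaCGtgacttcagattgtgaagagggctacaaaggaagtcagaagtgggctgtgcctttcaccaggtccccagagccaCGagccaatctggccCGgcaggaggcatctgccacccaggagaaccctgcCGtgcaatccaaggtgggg
The stretch that was marked only in WT had 10 CG in 106 bp, or 9.43 per 100 bp, and the GAD1 stretch marked in all 6 lists had 9 in 279 bp, or 3.23 per 100 bp. The unmarked SLC32A1 promoter had 32 CG in 250 bp (12.8 per 100 bp), and the marked stretch past the end of the same gene had 4 in 192 bp (2.08 per 100 bp). The GAD2 stretch had 7 CG in 165 bp (4.24 per 100 bp). All 3 genes had an entry in the RefSeq promoter table (250 bases before to 50 bases after a start site), with 2 entries for GAD2. The motif CG reads the same on both strands and was present in 96.0% of the 35116 promoters of this length, with a median of 14. The GAD1 promoter held 29 CG, the GAD2 promoters 27 and 34, and the SLC32A1 promoter 38, and 24.2%, 28.2%, 15.6% and 9.91% of all promoters held as many or more.

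GAD1 (ENSG00000128683.14, hg38 chr2:170813213-170861151, plus strand) has 17 annotated transcripts, each with a start site of its own. The main transcript, GAD1-202, starts at 170816887 and has 17 exons. In the gene with 10 kb on each side, 67.9 kb in all, the lists held 8 and 6 peaks in WT, 4 and 6 in 231K, and 5 each in 232P. All of these peaks lay in the first part of the gene, from 3.91 kb before to 11.3 kb after the main start site. The last 33.0 kb of the gene and the 10 kb behind it had no peak in any list. Peaks that overlapped by at least 1 bp were joined to 8 marks, none of which touched an exon of GAD1-202. One of the 8 was in all 6 lists, 2 were in 5 lists, and 1 was in both WT lists and no Tau-KO list. Of all 279786 marks of the 6 lists, 12.1% were in all 6 and 2.25% were in both WT lists and no Tau-KO list.

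**Figure D1:**
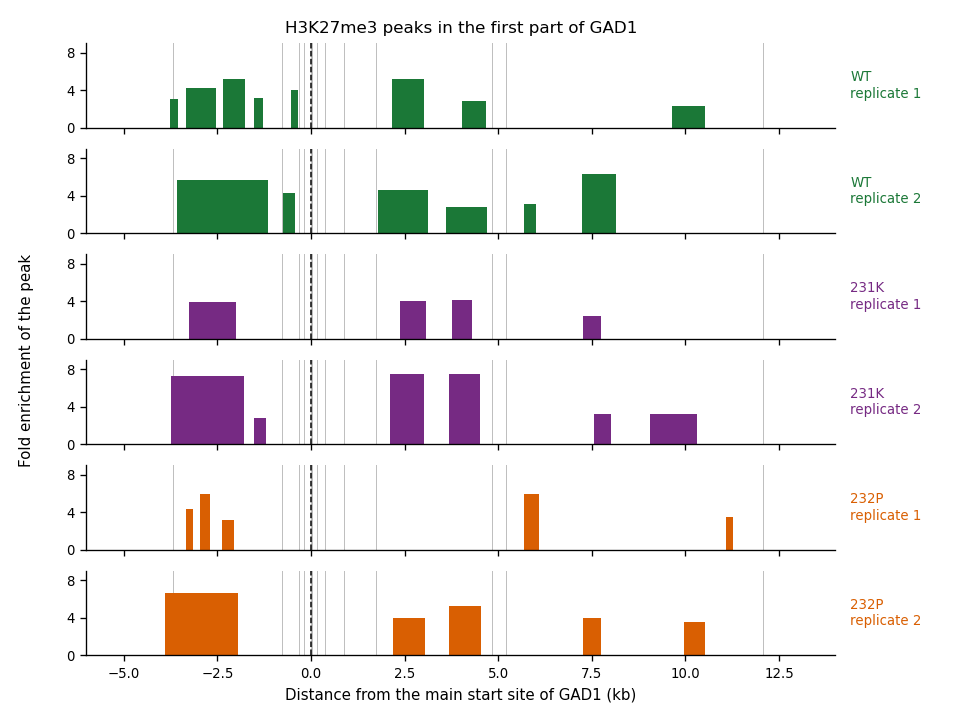
H3K27me3 peaks at GAD1 in each of the 6 lists. The x axis is the distance from the main start site in kb, the y axis the fold enrichment of the peak over its local background, each bar is 1 peak, grey lines are annotated start sites and the dashed line is the main one. The bars just before the dashed line are in both WT lists only, at a fold of 4.05 and 4.24, while the block further upstream is in all 6 lists.

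The mark by which GAD1 was chosen spans chr2:170816147-170816548, 740 to 339 bp before the main start site, and lies upstream of GAD1-202. The part common to both WT peaks is in intron 1 of the upstream transcript GAD1-206 and over an exon of the antisense lncRNA ENSG00000235934. In WT replicate 1 its peak had a fold enrichment of 4.05 and a -log10 q-value of 3.52, and in WT replicate 2 these were 4.24 and 4.01. The fold enrichment is the number of reads at the peak divided by the local background, each with 1 read added, and the q-value is the p-value of that height corrected over the genome. Both peaks were 10 reads high, over a background of 1.71 and 1.59 reads. By fold they ranked at percentile 75.3 and 71.1 of their lists. No Tau-KO list had a peak here.

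The nearest Tau-KO peak to the main start site was one of 231K replicate 2 that ended 1211 bp upstream of it, at a fold of 2.75, and so outside the window of 1 kb on each side that defines a TSS mark. In the other Tau-KO lists the nearest peak was 1995 bp (231K replicate 1), 2065 bp (232P replicate 1) and 1963 bp (232P replicate 2) upstream, so that a window of 2.5 kb on each side holds a peak of every list. With peaks of a -log10 q-value of at least 5 only, the mark was in no list, WT included.

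The WT restriction held for some start sites of GAD1 and not for the gene. With a window of 1 kb on each side, 5 of the 17 start sites, GAD1-201, GAD1-202, GAD1-203, GAD1-204 and GAD1-208, had a peak in both WT lists and no Tau-KO list. At 2 start sites just upstream, GAD1-206 and GAD1-217, the peak of 231K replicate 2 named above also fell in the window. The 3 start sites GAD1-207, GAD1-212 and GAD1-213 had a peak in all 6 lists. When any annotated start site counted, GAD1 thus had a TSS mark in all 6 lists, like 11.4% of all protein-coding genes, and was not among the 40 (0.2%) with such a mark in both WT lists and no Tau-KO list. At the main start site, a TSS mark in both WT lists and no Tau-KO list was found for 42 of the 19962 genes, or 0.21%, and for 1.53% of the 2749 genes that were marked there in both WT lists. The contrast was used to choose GAD1, and nothing is read from these shares.

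The mark shared by all lists spans chr2:170812977-170815743. It covers the start site of the upstream transcript GAD1-207 and that of ERICH2-DT, a lncRNA that runs the other way. In WT its highest fold was 5.16 and 5.66, with 3.87 and 7.31 in 231K and 5.97 and 6.62 in 232P. The peaks of the mark added up to 1845 and 2437 bp in WT, with 1274 and 2264 bp in 231K and 771 and 1948 bp in 232P. By fold both 232P lists were above both WT lists, and the 231K lists were the lowest and the highest of all. The peaks with these folds were 12 and 16 reads high in WT, and 11 and 14 in 232P. Their background was 1.52 and 2.00 reads in WT, and 1.01 and 1.27 in 232P. In summed length the lists of the 3 genotypes overlapped.

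In intron 2 of GAD1-202 there were 2 marks, both missing only in 232P replicate 1. For the one at chr2:170818675-170819999 the highest fold was 5.16 and 4.61 in WT, 3.97 and 7.53 in 231K, and 3.97 in 232P replicate 2. For the one at chr2:170820492-170821589 it was 2.85 and 2.78 in WT, 4.10 and 7.45 in 231K, and 5.22 in 232P replicate 2. By fold all 3 Tau-KO peaks were above both WT peaks, but by height the peak of 231K replicate 1 was not. Both WT peaks were 10 reads high, over a background of 2.86 and 2.96 reads, and the Tau-KO peaks were 9, 19 and 12 reads high, over 1.44, 1.68 and 1.49 reads. The second of these marks also covers the start site of the antisense lncRNA ENSG00000286611. The remaining 4 marks, all in intron 3, were in 1 to 4 lists, with a fold between 2.33 and 6.30.

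Over the whole window, peaks covered 6.49% and 9.40% of GAD1 in WT replicates 1 and 2, with 4.38% and 8.41% in 231K and 2.02% and 6.93% in 232P. The mean was 7.94% ± 2.05 in WT, 6.40% ± 2.86 in 231K and 4.48% ± 3.47 in 232P (SD, n = 2 each). The spread between replicates was as large as the distance between the means, and WT replicate 1 lay below replicate 2 of both Tau-KO lines. Within replicate 1, as within replicate 2, WT was above both Tau-KO lists. The share of all genes with this order is not given here. GAD1 was chosen by a contrast of WT with Tau-KO, so nothing is read from the order. Divided by the share of the genome that the same list covers, the values were 0.921 and 1.01 in WT, with 0.675 and 0.879 in 231K and 0.871 and 0.992 in 232P.

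**Figure D2:**
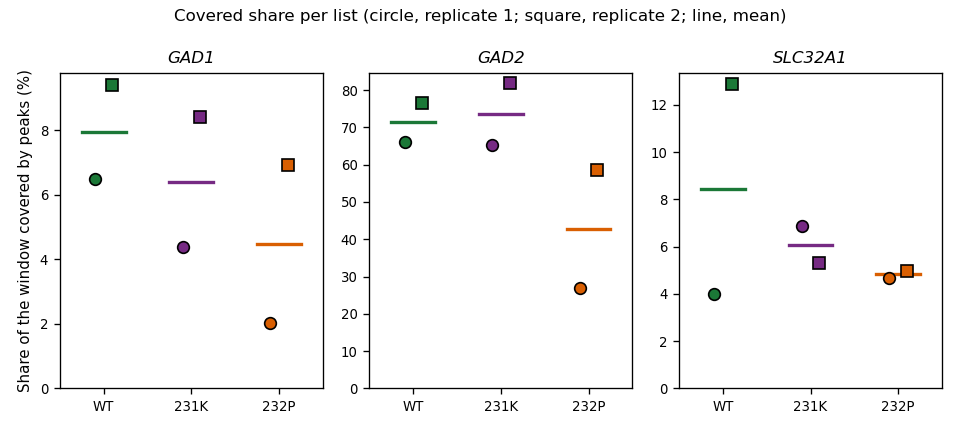
Share of each gene with 10 kb on each side that is covered by H3K27me3 peaks, in percent (y axis, a separate scale for each gene), for the WT cells and the Tau-KO lines 231K and 232P (x axis). Points are single lists and lines the mean of 2 replicates. GAD2 is covered between 26.9% and 81.8%, the other genes between 2.02% and 12.9%, and WT and Tau-KO lists overlap for all 3 genes.

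GAD2 (ENSG00000136750.13, hg38 chr10:26216665-26304558, plus strand) was the most widely marked of the 3 genes. Peaks covered 66.1% and 76.7% of its window in WT replicates 1 and 2, with 65.3% and 81.8% in 231K and 26.9% and 58.7% in 232P. In the mean over the 6 lists it ranked 499th of the 6984 genes with any peak in their window (percentile 92.9), while GAD1 and SLC32A1 ranked 3667th and 3647th. The cover of GAD2 was 8.22 to 11.6 times that of the genome in the same list, and the highest of these ratios was in the sparsest list, 232P replicate 1. 231K and WT gave nearly the same cover, and 232P was lower in both replicates.

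**Figure D3:**
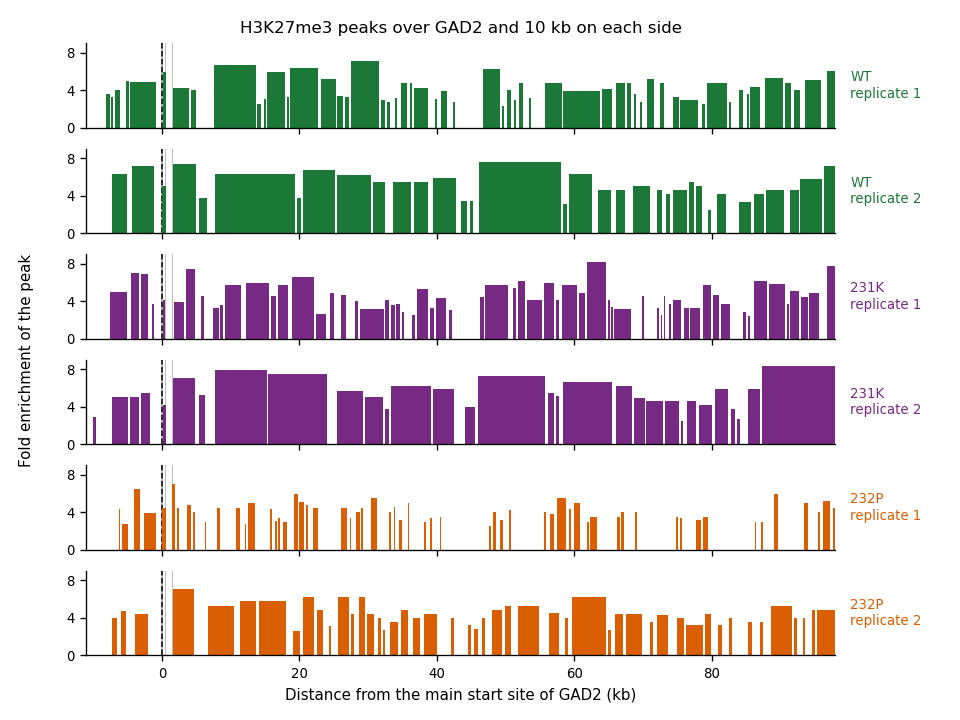
H3K27me3 peaks over GAD2 and 10 kb on each side in each of the 6 lists. The x axis is the distance from the main start site in kb, the y axis the fold enrichment of the peak, each bar is 1 peak, grey lines are annotated start sites and the dashed line is the main one. Peaks run through the whole gene in every list, in 31 to 62 pieces, and are narrowest in 232P replicate 1.

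The mean cover of GAD2 was 71.4% ± 7.47 in WT, 73.6% ± 11.7 in 231K and 42.8% ± 22.5 in 232P (SD, n = 2 each). WT exceeded Tau-KO by 13.2 percentage points, which was less than the spread between the 4 Tau-KO lists (23.0, SD), and the exact permutation test, two-sided, gave p = 0.533 (adjusted over 6984 genes by Benjamini-Hochberg, 1). With 2 lists against 4, this test allows no p below 0.0667. Divided by the share of the genome that the same list covers, the difference turned to -0.852, as a difference of ratios. Of all genes with a peak in their window, 7.98% had a cover that was higher in both WT lists than in every Tau-KO list, and none of GAD1, GAD2 and SLC32A1 was among them. Without 232P replicate 1 the difference for GAD2 was 2.77 percentage points, and without 231K replicate 2 it was 21.1. Part of the window also belongs to MYO3A, a myosin gene that ends within the 10 kb before GAD2. Within replicate 2, 231K was above WT and 232P below, and within replicate 1 WT was above both by 0.773 and 39.2 percentage points.

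The peaks of GAD2 joined to 12 marks, 8 of which were in all 6 lists. The 5 longest, of 17344 to 22006 bp, follow each other from 6639 bp behind the main start site to past the end of the gene and were in all lists. The highest fold in them was 8.34, in 231K replicate 2. The start site lay in a gap of this cover. The main transcript GAD2-203 starts at 26216774, and between 859 bp before and 63 bp after this base no list had a peak. The next mark, chr10:26216837-26217397, covers the end of exon 1 and part of intron 1, and was missing only in 232P replicate 2. At the main start site of 3.13% of all genes there was a TSS mark in 5 of the 6 lists. The fold of the GAD2 mark was 5.96 and 5.04 in the WT lists, 4.10 and 4.17 in 231K, and 4.47 in 232P replicate 1, with heights of 14, 11, 9, 9 and 8 reads over a background of 1.52, 1.38, 1.44, 1.40 and 1.01 reads. Both WT folds were above those of all Tau-KO lists, as was the case at the main start site of 7.06% of the 3851 genes that had a peak there in any list and of 9.89% of those marked there in both WT lists. With the list without a peak set to a fold of 1, the means were 5.50 ± 0.645 in WT (SD, n = 2) and 3.44 ± 1.63 in Tau-KO (SD, n = 4), and the exact permutation test, two-sided, gave p = 0.267 (adjusted over 3851 genes by Benjamini-Hochberg, 1). This measure was chosen after its values had been seen. The -log10 q-value of this mark was 6.83 and 5.19 in WT, 3.38 and 3.83 in 231K, and 3.06 in 232P replicate 1. With a threshold of 5 it was thus left in both WT lists and no Tau-KO list, as for 0.175% of all genes at their main start site. That share includes the genes without a mark, and as deposited 80.7% of all genes had none there in any list. The share among genes marked in both WT lists is not given for this threshold. WT replicate 2 passed it narrowly, and the q-value depends on depth.

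At the start site of the shorter transcript GAD2-202, 1419 bp behind the main one, all 6 lists had a peak. The mark there, chr10:26218289-26221695, had a highest fold of 4.26 and 7.33 in WT, with 7.38 and 7.09 in 231K and 6.96 and 7.06 in 232P. These folds are the highest anywhere in the mark, and in 231K replicate 1 the peak of this mark that lies within 1 kb of the start site had a fold of 3.87.

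SLC32A1 (ENSG00000101438.4, hg38 chr20:38724486-38729372, plus strand) has 1 transcript with 2 exons. No list had a peak within 1 kb of its start site, and 78.0% of protein-coding genes had none at any of their start sites. With 2.5 kb on each side in place of 1 kb, all 6 lists had one. The unmarked stretch around the start site ran from 1057 bp before to 1019 bp after it and held 177 CG in 2075 bp (8.53 per 100 bp). Peaks were few, 2 and 4 in WT, with 4 and 3 in 231K and 4 and 2 in 232P. They joined to 6 marks. The one at chr20:38729448-38730743 begins 76 bp past the end of the gene and was in all 6 lists, with a fold of 4.37 and 3.36 in WT, of 4.24 and 4.58 in 231K and 4.32 and 3.97 in 232P. The lists of the 3 genotypes overlapped here. A mark before the gene, chr20:38721820-38723429, was in all 4 Tau-KO lists and in WT replicate 2, with a highest fold of 2.85 in WT replicate 2, 4.10 and 5.00 in 231K, and 3.98 and 4.02 in 232P. The Tau-KO folds were above that of WT replicate 2, but by height only the peak of 231K replicate 2 was. The WT replicate 2 peak was 9 reads high over a background of 2.5 reads, and the Tau-KO peaks were 9 and 11 reads high in 231K and 7 and 9 in 232P, over 1.01 to 1.49 reads. Peaks of the mark covered 1314 bp in WT replicate 2 and 189 to 937 bp in the Tau-KO lists, and WT replicate 1 had no peak there. The other 4 marks were in 1 or 2 lists each.

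**Figure D4:**
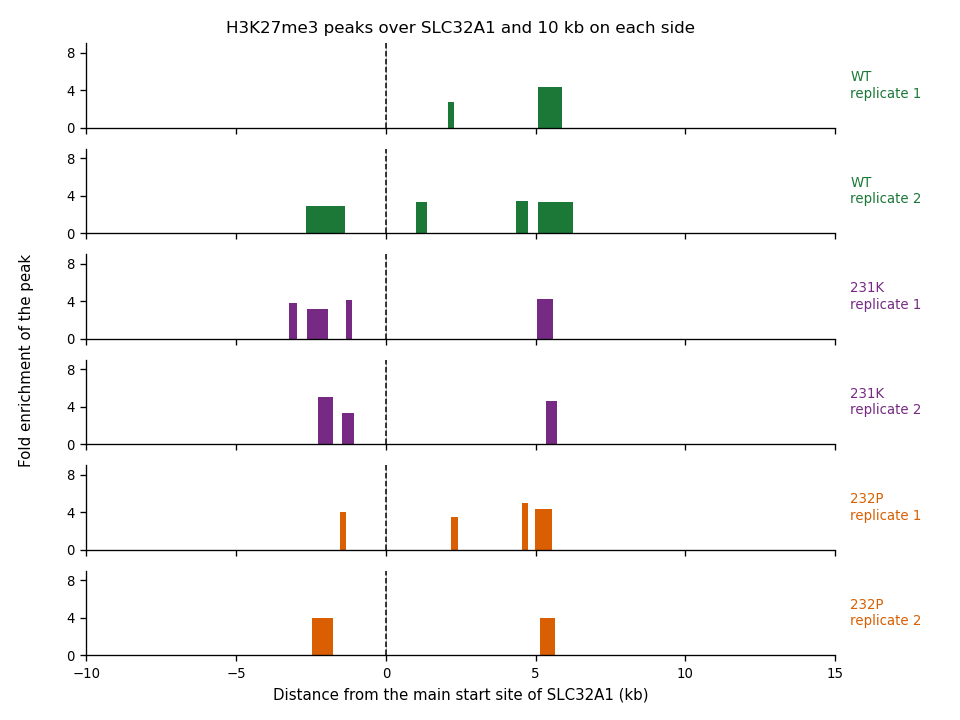
H3K27me3 peaks over SLC32A1 and 10 kb on each side in each of the 6 lists. The x axis is the distance from the start site (dashed line) in kb, the y axis the fold enrichment of the peak, and each bar is 1 peak. No bar comes within 1 kb of the start site, and the peak about 5 kb behind it is in all 6 lists.

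The cover of the SLC32A1 window was 3.98% and 12.9% in WT replicates 1 and 2, with 6.88% and 5.30% in 231K and 4.69% and 4.96% in 232P. WT held both the lowest and the highest list. The means were 8.44% ± 6.31 in WT, 6.09% ± 1.11 in 231K and 4.82% ± 0.193 in 232P (SD, n = 2 each), and the difference of 2.99 percentage points between WT and Tau-KO gave p = 0.4 in the exact permutation test, two-sided (adjusted over 6984 genes, 1). Within replicate 1 WT was below both Tau-KO lists, within replicate 2 it was above both, and the difference turned to -1.47 without WT replicate 2. Divided by the cover of the genome in the same list, it was -0.111, as a difference of ratios.

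The 3 genes had in common that the first base of the main transcript was in a peak of no list. This was so for 91.4% of all protein-coding genes and for 43.4% of the 2749 that were marked within 1 kb of it in both WT lists. The unmarked stretch around this base was 2126 bp long at GAD1, 921 bp at GAD2 and 2075 bp at SLC32A1. It held 8.14, 9.66 and 8.53 CG per 100 bp, and the marks of the same windows held 2.80, 1.19 and 3.10. Their GC content was 63.6%, 67.4% and 66.3%, against 50.5%, 42.9% and 53.6% in the marks, and the part of base composition in these gaps was not tested. GAD1 and GAD2 differed in extent, a few peaks at the front of the gene against cover of the whole gene, and SLC32A1 had a mean cover of 6.45%, near the 6.27% of GAD1, with no peak within 1 kb of its start site.

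Of 12 genes for uptake, breakdown and supply of GABA, 11 had a TSS mark in no list, where 78.0% of all protein-coding genes had none, among them SLC6A11 and SLC6A12, which carry GABA back into cells, ABAT, the transaminase that breaks it down, and ALDH5A1, the next enzyme of that path. The median cover of the 12 was 0%, the same as over all protein-coding genes. SLC6A13, a further GABA transporter, had a TSS mark in 232P replicate 2 only.

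Of 10 transcription factors of GABAergic lineages, 5 had a TSS mark in all 6 lists (11.4% of all protein-coding genes did), DLX1, LHX6, GSX2, PTF1A and TAL1. DLX6 and GATA2 had none. The cover was highest for NKX2-1, from 44.2% to 65.2%, and PTF1A, from 30.0% to 69.9%, and the median over the 10 was 19.1%. DLX2 had a TSS mark in both 232P lists and no other, but its window held peaks in all 6 lists. They covered 30.0% and 37.8% of it in WT replicates 1 and 2, and 28.4% and 32.9% in those of 232P. The share of all genes with this pattern of TSS marks is not given here.

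Of 12 enzymes and vesicle transporters of other transmitters, 10 had a TSS mark in no list, near the 78.0% of all protein-coding genes, among them SLC17A6, the glutamate transporter VGLUT2, SLC18A2 and SLC18A3, the monoamine and acetylcholine transporters, and SLC17A8. SLC17A7, which encodes VGLUT1, had one in all 6 lists, with 23.4% to 29.6% of its window covered. TPH2 had one in 2 Tau-KO lists. No gene of these groups was marked at a start site in both WT lists and lost in both lists of 231K or of 232P, against 0.416% and 1.16% of all genes, and none had a cover that was higher in both WT lists than in every Tau-KO list.

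As a check of the cell type, 4 genes of the noradrenergic lineage are given here. PHOX2A, HAND2, GATA3 and ISL1 had no TSS mark in any list. MAPT, the gene of Tau, had no peak in its window in any list, so the lists do not check the knock-out.

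The genes most like GAD1 in the highest fold near any start site over the 6 lists were GLRA1, P3H2 and UNC13C, at a distance of 0.233, 0.255 and 0.270 on the log2 scale. For GAD2 these were ZIC5 (0.206), BNC1 (0.340) and FLT1 (0.346). The fold of GAD1 itself was 5.16 and 5.66 in WT, with 4.10 and 7.53 in 231K and 5.97 and 6.62 in 232P, and that of GAD2 was 5.96 and 7.33, 4.10 and 7.09, and 6.96 and 7.06. In both genes 231K replicate 1 was the lowest list. SLC32A1 shared its lack of any TSS mark with 15565 other genes.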

How the data were processed

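H3K27me3 ChIP-seq of 6 samples was used, 1 peak list each, grouped by the sample labels. The authors used trimmomatic for the reads, BWA for mapping (hg38) and MACS (version 2) for the peaks of each sample. They name a broad setting, while the deposited files are in narrowPeak format, with 10 columns. They hold 147118 to 285826 peaks, more than the methods give for any sample, so the lists behind the marks and cover given here are not the peak sets of the study's own analysis. The submitters' processing notes also name deepTools. Thresholds, treatment of duplicates and the control library are not given in the sources used here. The deposited ratio is the fold enrichment at the summit, and the deposited -log10 values are those of its p-value and q-value. The score in the deposited files is that -log10 q-value times 10. All of them depend on depth.

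Height and background in reads were recovered from fold and p-value with the Poisson distribution (100% of peaks within 0.001 of the -log10 p-value). Relative depth is the lowest background divided by the smallest peak width. Without read counts no interval can be given. Genes came from GENCODE release 44. The start of the transcript that the annotation tags as the main one was the main start site. A TSS mark is a peak that overlaps the 1 kb on each side of a start site, and the cover of a gene is the share of the gene with 10 kb on each side that lies in peaks. WT and Tau-KO were compared over the lists by an exact permutation test of 15 arrangements, adjusted over all genes with a peak by Benjamini-Hochberg. The steps were tested on simulated data. Replicates 1 and 2 of the 3 genotypes deviated together (correlations of cover 0.707, 0.751 and 0.737, across genes), along with a smallest peak width of 175 to 179 bp against 240 to 262 bp, so the numbers were also used as a block (9 arrangements, smallest p 0.111). The labels name duplicates only as replicates, so p-values measure the spread between these samples. The results for 4 genes of the gene lists are not reported here. The genes and gene lists were chosen with earlier results of these data known. Named were the 3 genes, genes in their windows that are protein-coding or start in a peak, MAPT, the 3 nearest genes by the log2 fold at start sites, and members of the lists that were marked in both WT lists and lost in a Tau-KO line, or else examples of the commonest pattern and the exceptions to it. Python 3.11.15, numpy 2.4.6, pandas 2.3.3 and scipy 1.17.1 were used.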

Additional observations from a re-analysis of the deposited data

How the results depend on the processing

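Leaving out 1 list at a time, WT minus Tau-KO in cover ranged from 1.06 to 3.96 percentage points for GAD1 (without WT replicate 2 and 1, respectively), from 2.77 to 21.1 for GAD2 (exact permutation p from 0.2 to 0.8) and from -1.47 to 7.45 for SLC32A1 (without WT replicate 2 and 1, exact permutation p from 0.2 to 0.7). SLC32A1 also turned to -0.523 when only peaks with a -log10 q-value from 5 upward counted. Divided by the share of the genome that each list covers, an alternative added after the data had been seen, the differences became ratios and were 0.110 for GAD1, -0.852 for GAD2 and -0.111 for SLC32A1. With the replicate block the exact permutation p was 0.556 for GAD2 (difference 13.2) and 0.333 for SLC32A1 (difference 2.99), where neither test could pass 0.05. A TSS mark was found in 12 of 18 pairs of gene and list, in 7 when only the main start site counted, in all 18 with a start site window of 2.5 kb, and in 10 of 15 when any 1 list was left out. The 40 genes with a TSS mark at any start site in both WT lists and no Tau-KO list became 52 to 161 when 1 list was left out. The 557 genes with a higher cover in both WT lists became 623 to 2385 in that way. A list left out removes a condition, so both counts could only stay the same or rise. The 557 genes became 347 and 202 from a -log10 q-value of 2 and of 5 upward, and 319 with equally many peaks per list. The other alternatives (flanks of 50 kb, the gene alone, bridging of peaks within 1 kb, scaling of heights and backgrounds to the list with the lowest background, equally many peaks, an overlap of 200 bp) kept the directions. Among them the difference for SLC32A1 went from 0.646 with flanks of 50 kb to 7.32 with the gene alone, and that for GAD1 from 0.923 with equally many peaks to 3.89 with bridging. The causes were not tested. Depth limits what can be said of an absent peak.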
